A study of Mus musculus with 16 samples.

Results

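The complement and coagulation factors that the liver makes were followed in 16 mouse liver samples, 4 each from fasted knockout, fasted wild type, fed knockout and fed wild type animals. A list of 42 genes was taken, 21 of complement and 21 of coagulation. It was chosen with earlier results of these data known. Counts and medians set beside those over all genes therefore describe the list and are not a test of it. For each gene the probe set named with exactly 1 gene symbol was used, and where a gene had more than 1 such probe set, the brightest on average was kept. That left 37 measured genes of 18820 on the array, 18 of complement and 19 of coagulation. C4b, Masp2 and Klkb1 lay only on probe sets shared by several symbols, and C3 and Cpb2 were not analysed here.

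The mice were males aged 14 to 16 weeks, individually housed on standard chow, and the labels give the strain background as C57Bl/6J in all 4 groups. Knockout (KO) animals lacked vanin-1, a membrane-bound pantetheinase encoded by Vnn1, and wild type (WT) animals kept it. The labels describe the mutants as null mice and name no tissue-specific driver. Fasted animals had gone 24 h without food and fed animals had 24 h of normal feeding. The design sets the fasting response of liver in each genotype beside the effect of losing vanin-1 in each feeding state.

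Complement is a cascade of plasma proteases and pore-forming proteins that opsonises or lyses targets, and it can be started by antibody through C1q, by sugars through mannose-binding lectins, or by spontaneous turnover in the alternative pathway. Coagulation is a second protease cascade, in which contact factors and tissue factor feed into thrombin, thrombin makes fibrin, and plasmin dissolves it. Hepatocytes secrete most of both sets into plasma. C1q and properdin are made largely by macrophages and other myeloid cells, and in liver these include the Kupffer cells.

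The values were log2 intensities made by RMA, on which the highest array median over genes was 5.83. Every measured member lay above it in every group mean, between 8.33 (F11 in fasted KO) and 13.35 (Fgg in fed KO). SDs within groups of 4 ran from 0.0144 to 0.456 with a median of 0.134. Levels of different genes come from different probes and are not compared with each other. Vnn1, the targeted gene, lay at 3.98 ± 0.30 in fasted KO against 10.81 ± 0.69 in fasted WT livers, and at 3.89 ± 0.12 in fed KO against 8.91 ± 1.61 in fed WT livers (SD, n = 4 each). Two-sided tests used limma with Benjamini-Hochberg adjustment over all 18820 genes, and a gene was called below an adjusted p of 0.05. The labels do not state that each array is a separate animal, so p measures the spread between these samples. Precision is limited by the number of arrays, 4 in a group.

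A pair of arrays stood apart on genes outside the list. Fed KO 4 had a mean of 11.66 over 25 acute phase genes, against 9.59 to 10.50 on the other 15 arrays, and fasted WT 4 had a mean of 7.99 over 12 pancreatic enzyme genes, against 3.76 to 3.995 on the others. Fed KO 4 was the highest fed KO array on 12 of the 18 complement and 9 of the 19 coagulation genes. Fasted KO 1 was the lowest fasted KO array on 13 complement and 11 coagulation genes, and fasted KO 2 the highest on 14 complement genes. Fasted WT 3 was the highest fasted WT array on 13 complement and 11 coagulation genes. Fed WT 2 was the highest fed WT array on 10 complement genes. Shares over all genes were not counted. Member calls within a genotype that were lost without any 1 of these arrays are named below. In liver RNA, fewer cells of a type and less RNA per cell cannot be told apart. Hepatocyte markers gave median log2 differences of -0.02 (fasted KO over fed KO) and -0.01 (fasted WT over fed WT). Of 16 markers 2 were called lower in KO, and 2 higher and 2 lower in WT livers. Over all genes 4.89% were called lower in KO, and 4.27% lower and 3.34% higher in WT livers. The lower markers were Cebpa (-0.69 in KO, -0.64 in WT) and Serpina6 (-1.24 and -1.20), and the higher ones Tat and Hnf4a.

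**Figure D1:**
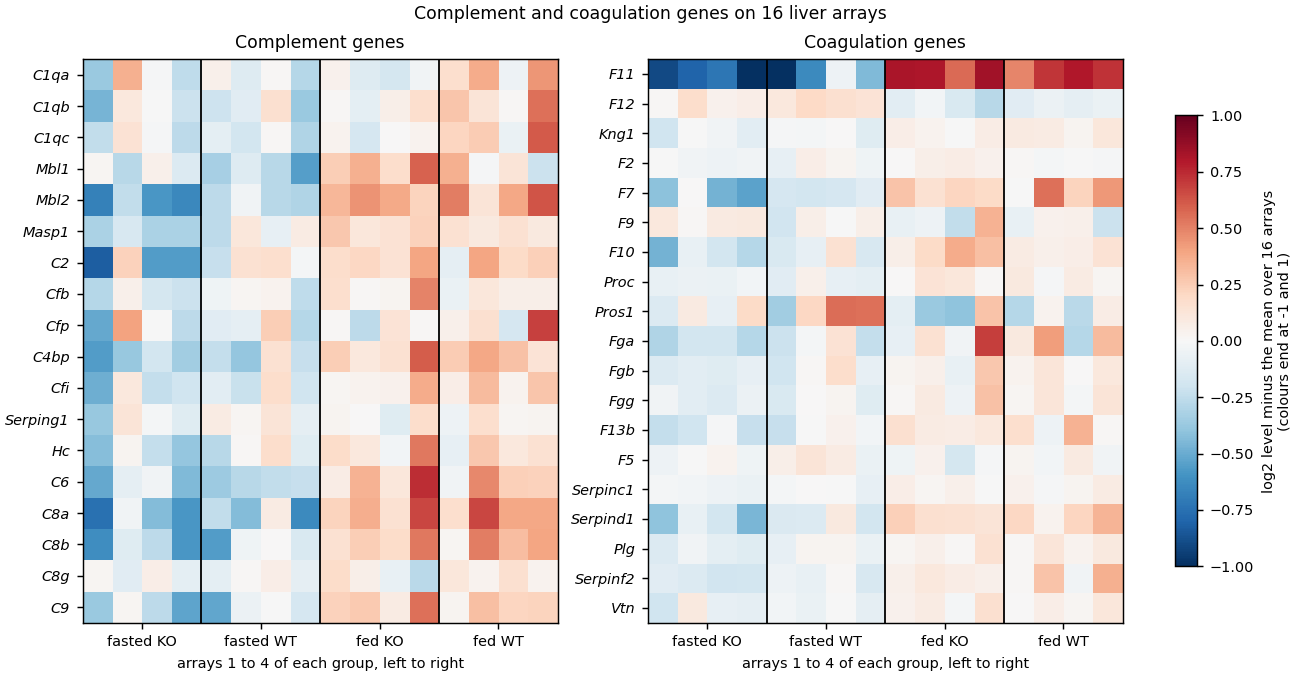
Level of each measured complement gene (left) and coagulation gene (right) on each of the 16 arrays, as the log2 level minus that gene's mean over all arrays. Columns run through fasted KO, fasted WT, fed KO and fed WT, arrays 1 to 4 in each. F11 shows the widest span of colours. For Mbl2, C8a and C8b most fasted columns are blue and most fed columns red in both genotypes, with some arrays near white.

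Complement genes called on fasting were all called lower. In KO livers 10 of 18 complement genes were called lower and 0 higher, where 4.89% of all genes were called lower and 4.53% higher. WT livers had 5 of 18 called lower and 0 higher, where 4.27% of all genes were called lower and 3.34% higher. Those 5 (C4bp, C6, C8a, C8b and Mbl2) were called in both genotypes, as were 2.52% of all genes in the lower direction. The median log2 difference of the 18 genes was -0.44 in KO and -0.35 in WT livers, against 0.02 and 0.01 over all genes. Estimates lay below 0 for 17 of 18 genes in KO and 18 of 18 in WT livers. With the genotypes averaged, 11 were called lower, where 9.88% of all genes were. The shares over all genes include dim genes, while every member lay at or above the 80.4th percentile of mean level. Shares among genes as bright as the members were not counted. The balance over all genes depended on scaling: WT livers had 629 genes higher and 803 lower as deposited, but 1014 higher and 542 lower after median centring. The averaged contrast had 1580 higher and 1860 lower as deposited, but 2426 higher and 1397 lower after centring. Centring left 2 complement genes called lower in WT livers, where C4bp, C6 and C8b lost their calls (adjusted p 0.0685 to 0.0902), while Hc and Mbl1 lost theirs in KO livers (0.0552 and 0.0660).

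As a mean over the 18 complement genes, the fasted KO arrays lay between 10.40 and 10.84 and the fasted WT arrays between 10.60 and 10.86. Fed KO arrays lay between 10.91 and 11.16, and fed WT arrays between 10.94 and 11.10. No fasted array reached a fed array on this mean, in either genotype. Gene by gene, the arrays lay lower without overlap for 8 of 18 complement genes in KO and 5 of 18 in WT livers, where 8.07% and 6.39% of all genes did. The counts moved with single arrays: KO livers had 6 genes called lower without fasted KO 1 or without fasted KO 4. WT livers had 1 without fasted WT 4, 2 without fasted WT 1, without fasted WT 2 or without fed WT 2, and 3 without fed KO 2 or without fed WT 3. Without fed KO 4 the KO count was 7, and without both fed KO 4 and fasted WT 4 it was 6 in KO and 3 in WT livers. Leaving out both ended the KO calls of C2, C6, Hc and Mbl1 (limma adjusted p 0.0508 to 0.121) and the WT calls of C4bp and C8b (0.0553 and 0.0727). With 13 arrays (without fasted KO 1, fed KO 4 and fed WT 2, whose names share an ending) 3 complement genes were called in KO livers. There C8a, C8b and C9 had adjusted p of 0.0620, 0.0716 and 0.108, C6 0.0992, Mbl1 0.160, C2 0.179 and Hc 0.260, and in WT livers C8b had 0.0987.

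The lectin pathway begins with mannose-binding lectins, which recognise sugars on microbes and act through the protease Masp1. Mbl2 (probe set 10462473, chromosome 19) lay at 8.71, 9.15, 8.81 and 8.74 on the fasted KO arrays, against 9.73, 9.84, 9.77 and 9.62 on the fed KO arrays. In WT livers it lay at 9.13, 9.35, 9.11 and 9.09 fasted, against 9.90, 9.52, 9.78 and 10.02 fed. All 8 fasted arrays lay below all 8 fed arrays, where 2.57% of all genes were apart in that direction. The fall was 1.85-fold in KO (log2 difference -0.89, SE 0.11, limma adjusted p = 9.95e-05) and 1.55-fold in WT livers (-0.63, SE 0.11, adjusted p = 2.71e-03), and both calls held at 0.05 under every setting tried.

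Mbl1, the second mouse mannose-binding lectin, lay at 10.14, 9.84, 10.17 and 9.98 in fasted KO, against 10.37, 10.48, 10.30 and 10.71 in fed KO livers. These arrays did not overlap, and the log2 difference was -0.43 (SE 0.13, limma adjusted p = 0.0397). The call was lost without any 1 of fasted KO 1, 2 or 4 and fed KO 1, 2 or 4 (adjusted p 0.0556 to 0.120). In WT livers the arrays overlapped, at 9.57 to 9.99 fasted against 9.90 to 10.47 fed, and the difference of -0.38 did not pass (adjusted p = 0.0772). Masp1 lay at 10.59, 10.75, 10.60 and 10.59 in fasted KO, against 11.18, 11.02, 11.06 and 11.14 in fed KO livers. That is 1.38-fold lower with no overlap (-0.47, SE 0.08, limma adjusted p = 1.41e-03), under every setting tried. WT arrays overlapped, at 10.65 to 11.03 fasted against 11.01 to 11.07 fed, with a difference of -0.16 that did not pass (adjusted p = 0.277).

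The terminal pathway assembles a membrane pore from C5 (encoded by Hc), C6, C7, C8 and C9, of which C7 was not analysed here. Of the 6 measured genes of this pathway, 5 were called lower in KO and 3 in WT livers, where 4.89% and 4.27% of all genes were. Of the 3 lectin pathway genes above, 3 were called lower in KO and 1 in WT livers. C8a (probe set 10514763) and C8b (probe set 10506454) encode chains of C8 and stand next to each other on chromosome 4 in RefSeq. C8a lay at 10.60, 11.31, 10.91 and 10.76 in fasted KO, against 11.57, 11.70, 11.49 and 12.01 in fed KO livers. Its WT values were 11.09, 10.90, 11.42 and 10.70 fasted, against 11.51, 12.01, 11.73 and 11.73 fed. Again all 8 fasted arrays were below all 8 fed ones. The differences were -0.80 in KO (SE 0.17, 1.74-fold, limma adjusted p = 5.42e-03) and -0.71 in WT livers (SE 0.17, 1.64-fold, adjusted p = 0.0147). Without fasted WT 4 the WT adjusted p was 0.0563.

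C8b lay at 11.28, 11.78, 11.64 and 11.32 in fasted KO, against 12.05, 12.15, 12.08 and 12.43 in fed KO livers. WT livers gave 11.34, 11.86, 11.90 and 11.75 fasted, against 11.92, 12.41, 12.21 and 12.29 fed. The fasted arrays were lower without overlap in both genotypes, by -0.67 in KO (SE 0.14, limma adjusted p = 6.13e-03) and by -0.50 in WT livers (SE 0.14, adjusted p = 0.0449). Its WT call was lost without any 1 of fasted KO 3, fasted WT 1, 2 or 4, fed KO 1, 2 or 3 and fed WT 2, 3 or 4 (adjusted p 0.0531 to 0.122). C8g, the gene of the remaining C8 chain, did not pass: its log2 difference was -0.00 in KO (95% interval -0.19 to 0.18) and -0.11 in WT livers (-0.30 to 0.07). These intervals leave out falls of the size estimated for C8a and C8b.

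C6, the factor that follows C5 in the pore, lay at 10.34, 10.76, 10.82 and 10.41 in fasted KO, against 10.93, 11.20, 10.96 and 11.59 in fed KO livers. The WT values were 10.49, 10.58, 10.60 and 10.62 fasted, against 10.82, 11.33, 11.09 and 11.08 fed. Neither genotype had overlapping arrays. The log2 differences were -0.59 in KO (SE 0.14, limma adjusted p = 0.0148) and -0.51 in WT livers (SE 0.14, adjusted p = 0.0403). The KO call was lost without fasted KO 1 or fasted KO 4 (adjusted p 0.0540 to 0.0602). The WT call was lost without any 1 of the 4 fasted WT arrays, fed KO 2 and fed WT 2, 3 or 4 (adjusted p 0.0517 to 0.117).

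C9, which polymerises into the pore, lay at 11.64, 12.04, 11.75 and 11.49 in fasted KO, against 12.24, 12.28, 12.09 and 12.56 in fed KO livers. It was 1.48-fold lower with no overlap (-0.56, SE 0.13, limma adjusted p = 0.0105). In WT livers C9 also did not overlap, at 11.49 to 12.01 fasted against 12.04 to 12.31 fed, but the difference of -0.38 did not pass (adjusted p = 0.0949). Hc lay at 11.88, 12.33, 12.06 and 11.91 in fasted KO, against 12.48, 12.40, 12.27 and 12.83 in fed KO livers, where the arrays overlapped (-0.45, SE 0.13, limma adjusted p = 0.0365). Without any 1 of fasted KO 1, 3 or 4 and fed KO 1 or 4 it was not called (adjusted p 0.0657 to 0.118). Its WT difference of -0.16 did not pass (adjusted p = 0.522).

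C2 is the protease of the classical and lectin convertase, and Cfb (factor B) that of the alternative one. C2 lay at 8.44, 9.49, 8.70 and 8.69 in fasted KO, against 9.43, 9.46, 9.40 and 9.65 in fed KO livers, so fasted KO 2 stood with the fed arrays and the other 3 below them. The log2 difference was -0.66 (SE 0.17, limma adjusted p = 0.0215), and it was not called without any 1 of fasted KO 1, 3 or 4 and fed KO 4 (adjusted p 0.0585 to 0.0849). In WT livers C2 lay at 9.03 to 9.42 fasted against 9.17 to 9.65 fed, a difference of -0.17 that did not pass (adjusted p = 0.644). Cfb gave -0.33 in KO (adjusted p = 0.0652) and -0.10 in WT livers (adjusted p = 0.646). Cfp, properdin, which stabilises the alternative convertase, gave -0.07 and -0.24 and was not called in either genotype.

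Of the inhibitors, C4bp binds C4b and speeds the decay of the classical convertase, Cfi (factor I) cleaves C3b and C4b, and Serping1 (C1 inhibitor) blocks the proteases of the first steps and of contact activation. C4bp (probe set 10357516, chromosome 1) lay at 11.13, 11.31, 11.51 and 11.34 in fasted KO, against 11.93, 11.80, 11.84 and 12.29 in fed KO livers. It was 1.56-fold lower without overlap (-0.64, SE 0.12, limma adjusted p = 2.84e-03), under every setting tried. WT livers gave 11.45, 11.31, 11.84 and 11.46 fasted, against 11.94, 12.07, 11.98 and 11.82 fed, where fasted WT 3 reached the lowest fed array. That difference was -0.44 (SE 0.12, limma adjusted p = 0.0385) and lost its call without any 1 of fasted KO 4, fasted WT 1, 2 or 4 and fed WT 1, 2 or 3 (adjusted p 0.0508 to 0.114).

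Cfi was called only with the genotypes averaged, at -0.29 (SE 0.09, limma adjusted p = 0.0297). Its levels were 11.35 to 11.95 in fasted KO, 11.62 to 12.02 in fasted WT, 11.86 to 12.21 in fed KO and 11.87 to 12.16 in fed WT livers, all overlapping. The averaged call was lost without any 1 of fasted KO 1 or 3, fasted WT 2 or 4, fed KO 4 and fed WT 2 or 4 (adjusted p 0.0502 to 0.0661). Serping1 gave -0.12 in KO (95% interval -0.33 to 0.09) and -0.01 in WT livers (-0.22 to 0.20) and was not called.

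C1qa, C1qb and C1qc, the chains of C1q, are neighbours on chromosome 4. None of the 3 passed in either genotype. Their log2 differences were 0.00, -0.18 and -0.07 in KO livers and -0.32, -0.37 and -0.39 in WT livers, where adjusted p was 0.0654 at the lowest. The difference between the genotypes' responses did not pass for any of the 3 (limma adjusted p 0.948 to 0.961). Macrophage markers moved with C1q from array to array. The mean of the 3 C1q genes was highest on fed WT 4, at 9.80, and lowest on fasted KO 1, at 8.91. The mean of 25 macrophage markers was likewise highest on fed WT 4, at 8.52, and lowest on fasted KO 1, at 7.48. Of these markers 1 of 25 was called lower in fasted KO and 3 of 25 in fasted WT livers, where 4.89% and 4.27% of all genes were. With the genotypes averaged 9 of 25 were lower, where 9.88% of all genes were. The median log2 difference of the markers was -0.25 in KO and -0.40 in WT livers, against 0.02 and 0.01 over all genes. Their summed-level range was 7.48 to 8.14 in fasted KO, 7.65 to 8.09 in fasted WT, 7.86 to 8.10 in fed KO and 7.94 to 8.52 in fed WT livers, each as a mean over the 25 markers. Their part in the C1q values was not tested.

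**Figure D2:**
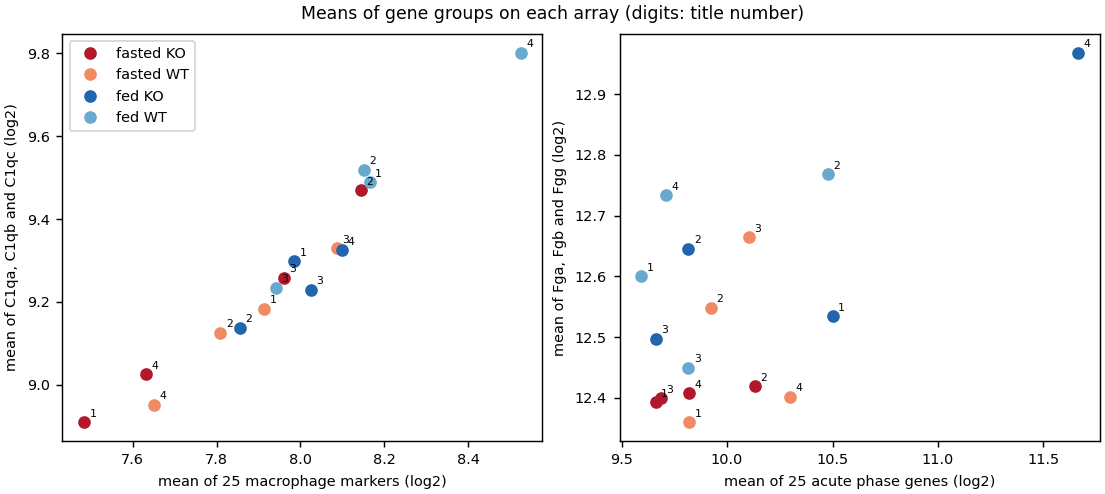
Left, mean log2 level of C1qa, C1qb and C1qc on each array (vertical) against the mean of 25 macrophage markers (horizontal). Right, mean log2 level of Fga, Fgb and Fgg (vertical) against the mean of 25 acute phase genes (horizontal). Each point is 1 of 16 arrays, coloured by group and marked with its title number, and fed WT 4 (left) and fed KO 4 (right, at 11.66) lie at the upper right.

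Promoter windows are shown for C8a, C8b and C4bp because all 3 genes were lower in fasted liver of both genotypes and share a motif match. They were chosen partly by that match, so sharing it is not a result. C6 and F11, also called lower in both genotypes, had windows without it. Mbl2 and F7, the remaining members called lower in both, gave no match, and whether they had a window is not stated here. Windows of 250 bases before the annotated start were taken from RefSeq (GRCm38.p6), and 28 of the 37 measured members matched, with 29 windows. Both strands were searched for 5 motifs, none of which contains another. The half-site GTTAAT, bound by HNF1 factors of hepatocytes, was found in 9 of 29 windows (31.0%), against 6.43% of 32851 windows over all genes. The genes were C4bp, C8a, C8b, Cfp, F13b, Fga, Fgb, Hc and Vtn, so it was not limited to genes that fell. AGAACA, a glucocorticoid receptor half-site, was found in 11 windows (37.9%, against 16.1% over all genes), the C/EBP palindrome TTGCNNCAA in 2 (6.90%, against 1.74%), the forkhead core GTAAACA in 1 (3.45%, against 3.17%) and the HNF4-type site CAAAGTCCA in 0 (against 0.384%). Capitals mark the match, written as read on the strand of the gene, and a match is a description of the letters only. The windows are chr4:104876399-104876648 on the minus strand for C8a, chr4:104766067-104766316 on the plus strand for C8b and chr1:130661619-130661868 on the minus strand for C4bp. In C8b the match stands on the opposite strand and reads ATTAAC.
C8a: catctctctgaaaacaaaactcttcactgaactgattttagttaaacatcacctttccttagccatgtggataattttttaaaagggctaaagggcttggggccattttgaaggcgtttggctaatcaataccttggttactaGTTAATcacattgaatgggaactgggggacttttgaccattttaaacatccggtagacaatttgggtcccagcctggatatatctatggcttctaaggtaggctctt
C8b: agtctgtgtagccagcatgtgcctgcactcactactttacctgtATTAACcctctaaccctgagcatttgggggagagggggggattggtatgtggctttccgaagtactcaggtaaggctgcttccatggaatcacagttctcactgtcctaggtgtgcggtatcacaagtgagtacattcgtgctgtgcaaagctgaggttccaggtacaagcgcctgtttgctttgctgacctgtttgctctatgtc
C4bp: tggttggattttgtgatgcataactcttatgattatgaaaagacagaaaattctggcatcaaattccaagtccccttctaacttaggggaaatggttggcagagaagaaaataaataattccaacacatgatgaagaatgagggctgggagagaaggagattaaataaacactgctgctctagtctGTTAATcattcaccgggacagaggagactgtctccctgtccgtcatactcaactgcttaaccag

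Other complement genes, 24 measured of a list of 34, had 4 called lower in fasted KO, 1 in fasted WT livers and 0 higher in either, where 4.89% and 4.27% of all genes were called lower. The WT share is near that over all genes. With the genotypes averaged 8 of 24 were lower and 0 higher, where 9.88% of all genes were lower. C4a fell most (log2 difference -0.78, SE 0.13, limma adjusted p = 3.32e-04). It lay at 7.32, 7.92, 7.67 and 7.72 in fasted KO, 7.62, 8.05, 7.86 and 7.81 in fasted WT, 8.57, 8.47, 8.35 and 9.21 in fed KO and 8.15, 8.80, 8.39 and 8.27 in fed WT livers. Every fasted array was below every fed one, but C4a and C4b are near-identical and the probes may not separate them. C1ra and C1s1, neighbours that encode the C1 proteases, fell by 0.44 and 0.36 (limma adjusted p = 1.00e-03 and 7.07e-04), with C1ra open to the same doubt because of C1rb. The collectin gene Colec10 fell by 0.26 (adjusted p = 0.0157) and Cd59b, a gene of the inhibitor of pore assembly with the near-copy Cd59a, by 0.55 (adjusted p = 7.05e-03). Vsig4, a complement receptor of Kupffer cells that is also a macrophage marker, gave -0.31 (adjusted p = 0.0439) and lost its call without any of 11 single arrays.

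In KO livers 4 of 19 coagulation genes were called lower and 0 higher on fasting, and in WT livers 2 were lower and 1 higher, against 9.42% of all genes called in KO and 7.61% in WT livers. F7 and F11 were called lower in both genotypes. The median log2 difference was -0.16 in KO and -0.11 in WT livers, against 0.02 and 0.01 over all genes, and 15 of 19 estimates lay below 0 in each. With the genotypes averaged 6 were lower and 1 higher, where 9.88% and 8.4% of all genes were. The mean over the 19 genes lay at 11.54 to 11.66 in fasted KO, 11.57 to 11.80 in fasted WT, 11.76 to 11.93 in fed KO and 11.78 to 11.88 in fed WT livers, so fasted WT 3 reached into the fed range. In KO livers the arrays of 13 genes lay lower without overlap and those of 1 gene higher, where 8.07% and 8.89% of all genes did. WT livers had 4 such genes lower and 1 higher, where 6.39% and 6.02% did. The WT count of called genes was 1 without fasted WT 2 or without fed WT 4, and 1 without both fed KO 4 and fasted WT 4, where F7 and F12 had adjusted p of 0.0553 and 0.0589. With the 13 arrays F10 had 0.05003 in KO livers, and F7 and F12 had 0.0969 and 0.0509 in WT livers.

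**Figure D3:**
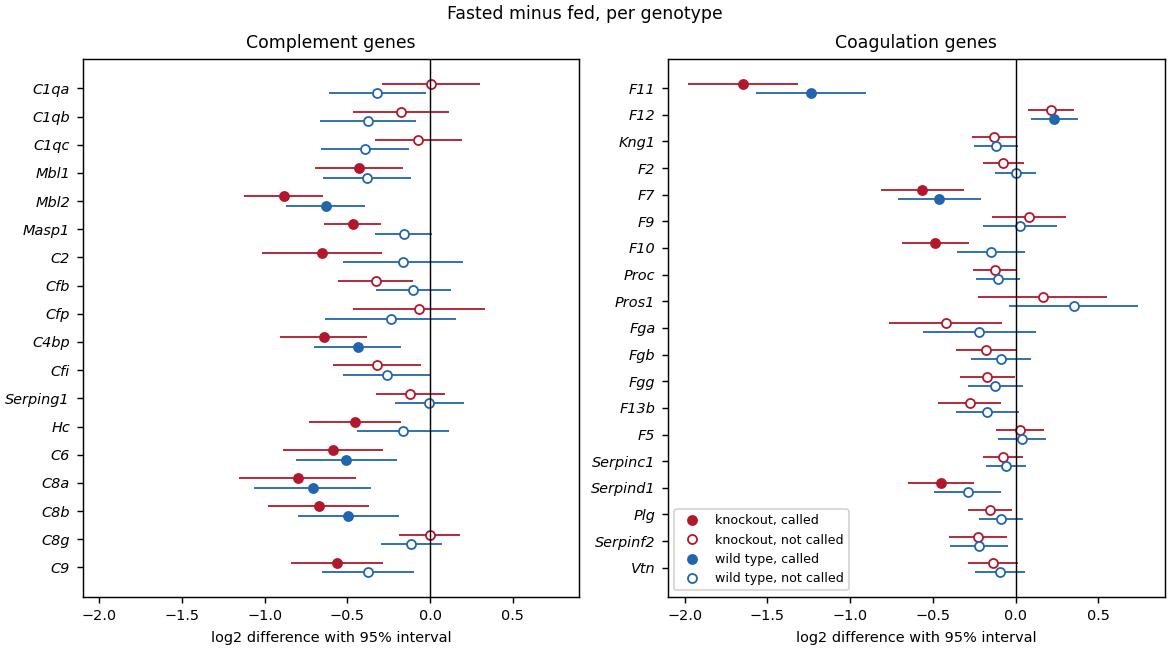
Log2 difference of fasted minus fed liver for each complement gene (left) and coagulation gene (right), knockout above wild type within each gene. Points are limma estimates with 95% intervals (4 arrays per group), filled where the adjusted p was below 0.05. F11 lies furthest from 0, at -1.65 in KO and -1.24 in WT livers, and F12 is the filled point to the right of 0.

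The contact factors start the intrinsic pathway. F11, the zymogen of factor XIa, which activates factor IX, had the largest difference of the 37 measured members in both genotypes. F11 (probe set 10578427, chromosome 8) lay at 8.31, 8.41, 8.49 and 8.10 in fasted KO, against 10.03, 10.03, 9.78 and 10.06 in fed KO livers. WT livers gave 8.13, 8.58, 9.16 and 8.77 fasted, against 9.70, 9.93, 10.02 and 9.94 fed. The 8 fasted arrays all lay below the 8 fed arrays. The fall was 3.13-fold in KO (log2 difference -1.65, SE 0.16, limma adjusted p = 9.22e-06) and 2.36-fold in WT livers (-1.24, SE 0.16, adjusted p = 2.43e-04). No setting tried ended either call. The responses differed by -0.41 between genotypes (KO minus WT, 95% interval -0.88 to 0.06), which did not pass (adjusted p = 0.948). Klkb1, the prekallikrein gene next to F11 in RefSeq, was not analysed here.

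F12, the Hageman factor gene that starts contact activation, went the other way. It lay at 11.83, 11.99, 11.86 and 11.88 in fasted KO, 11.92, 12.02, 11.97 and 11.95 in fasted WT, 11.71, 11.79, 11.67 and 11.54 in fed KO and 11.70, 11.76, 11.73 and 11.75 in fed WT livers. Every fasted array was above every fed array, where 2.17% of all genes were apart in that direction. Averaged over genotypes F12 rose by 0.22 (SE 0.05, 1.17-fold, limma adjusted p = 3.01e-03). The difference was 0.21 in KO (adjusted p = 0.0553) and 0.23 in WT livers (adjusted p = 0.0420). The WT call was lost without any 1 of fasted KO 3 or 4, fasted WT 2, 3 or 4, fed KO 1 or 3 and the 4 fed WT arrays (adjusted p 0.0530 to 0.101), and the averaged call held throughout. Kng1, kininogen, the cofactor of contact activation, gave -0.13 in KO and -0.12 in WT livers and was not called; its probes may share signal with the neighbour Kng2.

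The promoter windows of F11 and F12 are shown because these genes moved in opposite directions. F11 held the sole match to GTAAACA among the 29 windows (chr8:45262032-45262281, minus strand), and F12 held AGAACA on the opposite strand, read as TGTTCT (chr13:55426805-55427054, minus strand). AGAACA also stood in the windows of F10, C9 and Mbl1, which were called lower in KO livers. The share of member windows with GTAAACA (3.45%) was near that over all genes (3.17%). The part of these matches in the directions was not tested. Build, source and marking are as above.
F11: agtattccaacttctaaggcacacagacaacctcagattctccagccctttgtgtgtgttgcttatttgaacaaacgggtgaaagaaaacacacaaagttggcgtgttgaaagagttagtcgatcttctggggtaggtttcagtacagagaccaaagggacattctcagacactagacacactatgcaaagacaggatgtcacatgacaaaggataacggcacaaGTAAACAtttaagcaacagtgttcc
F12: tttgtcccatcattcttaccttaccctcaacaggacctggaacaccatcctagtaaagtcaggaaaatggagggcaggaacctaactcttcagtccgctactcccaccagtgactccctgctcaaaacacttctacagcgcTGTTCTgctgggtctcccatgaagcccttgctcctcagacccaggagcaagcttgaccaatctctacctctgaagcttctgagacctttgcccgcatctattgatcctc

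**Figure D4:**
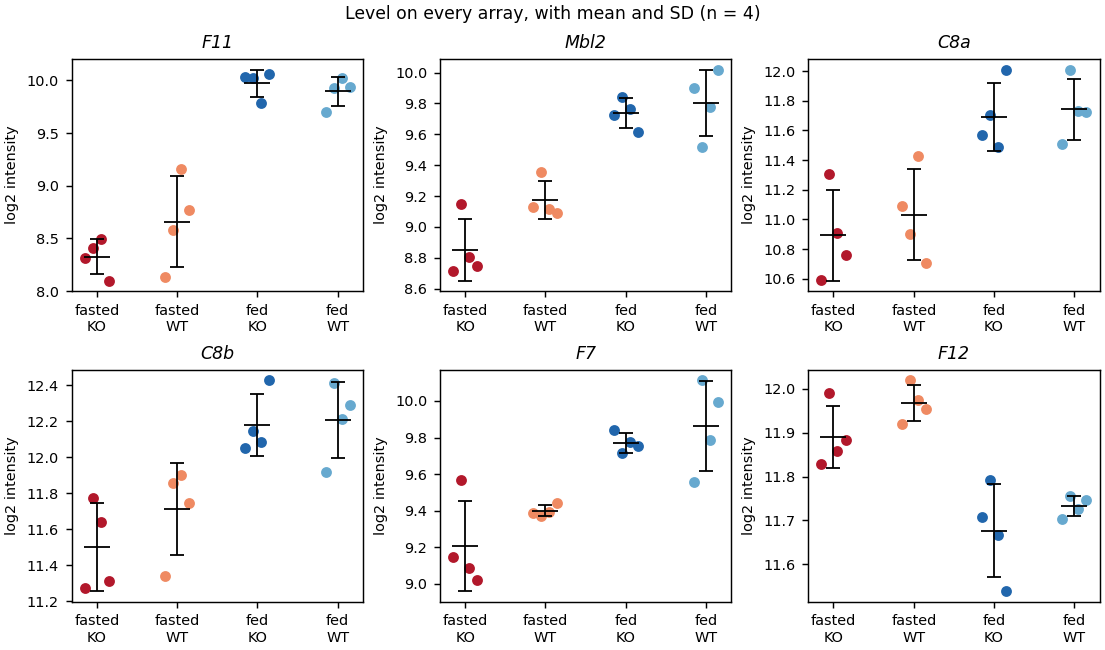
Log2 level on every array for F11, Mbl2, C8a, C8b, F7 and F12, each panel with its own vertical axis that does not start at 0. Points are the 4 arrays of fasted KO, fasted WT, fed KO and fed WT, with the group mean and SD. Fasted points lie below fed ones for F11, Mbl2, C8a and C8b, and above them for F12.

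Among the genes of vitamin K dependent proteins, F7, the partner of tissue factor, fell in both genotypes. It lay at 9.15, 9.57, 9.09 and 9.02 in fasted KO, against 9.84, 9.71, 9.77 and 9.75 in fed KO livers. WT values were 9.39, 9.37, 9.40 and 9.44 fasted, against 9.56, 10.11, 9.78 and 9.997 fed. The arrays did not overlap within a genotype. Differences were -0.57 in KO (SE 0.12, limma adjusted p = 5.42e-03), under every setting tried, and -0.46 in WT livers (SE 0.12, adjusted p = 0.0238). The WT call was lost without any 1 of fasted WT 2 or 3 and fed WT 2 or 4 (adjusted p 0.0518 to 0.0741).

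F10, the factor that cleaves prothrombin, stands beside F7 on chromosome 8. It lay at 10.71, 11.11, 10.9998 and 10.89 in fasted KO, against 11.24, 11.37, 11.55 and 11.48 in fed KO livers, 1.40-fold lower without overlap (-0.48, SE 0.10, limma adjusted p = 3.63e-03). In WT livers it lay at 11.02 to 11.33 fasted against 11.23 to 11.33 fed, and the difference of -0.15 did not pass (adjusted p = 0.408). F10 and Masp1 had the lowest unadjusted p of the members for the difference of the responses, but neither passed (limma adjusted p = 0.948 for both).

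F2 (prothrombin), F9 and Proc (protein C) did not pass in either genotype. F2 gave -0.08 in KO (95% interval -0.20 to 0.05) and -0.00 in WT livers (-0.12 to 0.12), and its 16 levels lay between 12.66 and 12.81. F9 gave 0.08 (-0.14 to 0.31) and 0.03 (-0.20 to 0.25). Pros1, protein S, the cofactor of activated protein C, gave 0.16 in KO and 0.35 in WT livers (adjusted p = 0.668 and 0.294), with fasted WT arrays from 9.06 to 9.97 against fed WT arrays from 9.13 to 9.49.

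Fibrinogen, the soluble precursor of fibrin, is made of 3 chains whose genes Fgg, Fga and Fgb are neighbours on chromosome 3. None was called. Fga gave -0.42 in KO (SE 0.16, limma adjusted p = 0.121) and -0.22 in WT livers (adjusted p = 0.483). Its levels were 11.11, 11.22, 11.22 and 11.12 in fasted KO, against 11.33, 11.56, 11.37 and 12.10 in fed KO livers. Fed KO 4, the array with the highest acute phase mean, had the highest level of each of the 3 chains among the fed KO arrays. Its mean over the 3 chains was 12.97, against 12.50 to 12.65 on the other fed KO arrays, and the part of the acute phase genes in it was not tested. F13b, the carrier subunit of the factor that crosslinks fibrin, fell by 0.22 with the genotypes averaged (SE 0.06, limma adjusted p = 0.0202). It lay at 9.9995 to 10.22 in fasted KO, 10.01 to 10.28 in fasted WT, 10.31 to 10.40 in fed KO and 10.19 to 10.58 in fed WT livers, and its adjusted p was 0.104 after median centring.

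Of the inhibitors of coagulation, Serpind1 (heparin cofactor II) lay at 11.73, 12.06, 11.95 and 11.68 in fasted KO, against 12.37, 12.29, 12.29 and 12.26 in fed KO livers. It was 1.37-fold lower without overlap (-0.45, SE 0.09, limma adjusted p = 5.66e-03), under every setting tried, and gave -0.29 in WT livers (adjusted p = 0.0758). Serpinc1 (antithrombin) gave -0.08 in KO (95% interval -0.20 to 0.04) and -0.06 in WT livers (-0.18 to 0.06). F5, the cofactor of factor Xa, gave 0.03 and 0.04 (intervals -0.12 to 0.17 and -0.11 to 0.18). Serpinf2, the gene of the main plasmin inhibitor, fell by 0.23 with the genotypes averaged (SE 0.06, limma adjusted p = 0.0120). Its levels were 12.31 to 12.39 in fasted KO, 12.34 to 12.52 in fasted WT, 12.55 to 12.61 in fed KO and 12.47 to 12.86 in fed WT livers. Plg (plasminogen) and Vtn (vitronectin) gave -0.16 and -0.14 in KO and -0.09 and -0.10 in WT livers and were not called.

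Other coagulation genes, 33 measured of a list of 36, had 6 called lower in fasted KO livers, and 5 lower and 1 higher in fasted WT livers. Over all genes 4.89% were lower in KO, and 4.27% lower and 3.34% higher in WT livers. Averaged over genotypes 11 of 33 were lower and 2 higher, where 9.88% and 8.4% of all genes were. Proz (protein Z), the gene next to F10, fell by 0.43 (SE 0.06, limma adjusted p = 4.51e-05), at 10.03 to 10.24 in fasted KO and 10.03 to 10.37 in fasted WT, against 10.50 to 10.72 in fed KO and 10.50 to 10.63 in fed WT livers. Serpina10, the protein Z-dependent protease inhibitor, fell by 0.82 (SE 0.15, adjusted p = 1.17e-03). Ggcx, the carboxylase that modifies vitamin K dependent factors, fell by 0.52 (SE 0.08, adjusted p = 2.25e-04), and was called in both genotypes, as was Proz. F3 (tissue factor), Habp2 and Tfpi2 fell by 0.50, 0.49 and 0.44 (adjusted p = 0.0114, 8.66e-04 and 3.05e-03). Vkorc1l1, a vitamin K epoxide reductase, rose by 0.29 (adjusted p = 2.14e-03) and Plaur, the urokinase receptor, by 0.24 (adjusted p = 7.39e-03).

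The loss of vanin-1 left no called member. In fasted liver 0 of 18 complement and 0 of 19 coagulation genes were called in KO against WT. Over all genes 3 were called there (0.0159%), with the targeted gene Vnn1 among them. In fed liver 0 of 37 members were called, and over all genes 1 was (0.00531%), which was Vnn1. At an unadjusted p under 0.05 there were 3 complement genes in fasted and 3 in fed liver, and 0 coagulation genes in either. In fasted livers these were C2 (8.83 ± 0.46 in KO and 9.27 ± 0.19 in WT), Masp1 (10.63 ± 0.08 in KO and 10.87 ± 0.18 in WT) and Mbl2 (8.85 ± 0.20 in KO and 9.17 ± 0.12 in WT; SD, n = 4 each), all with limma adjusted p = 0.867. In fed livers they were C1qa (log2 difference -0.31), C1qc (-0.28) and Mbl1 (0.28), all with limma adjusted p = 0.855. The share of all genes at an unadjusted p under 0.05 was not counted, so these genes are not read as a result. The 95% intervals of the complement genes ran from -0.81 to 0.50 in fasted and from -0.60 to 0.55 in fed liver. Those of the coagulation genes ran from -0.67 to 0.32 and from -0.43 to 0.41. The intervals of single genes reached 0.17 to 0.40 to either side of the estimate for complement and 0.12 to 0.39 for coagulation.

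**Figure D5:**
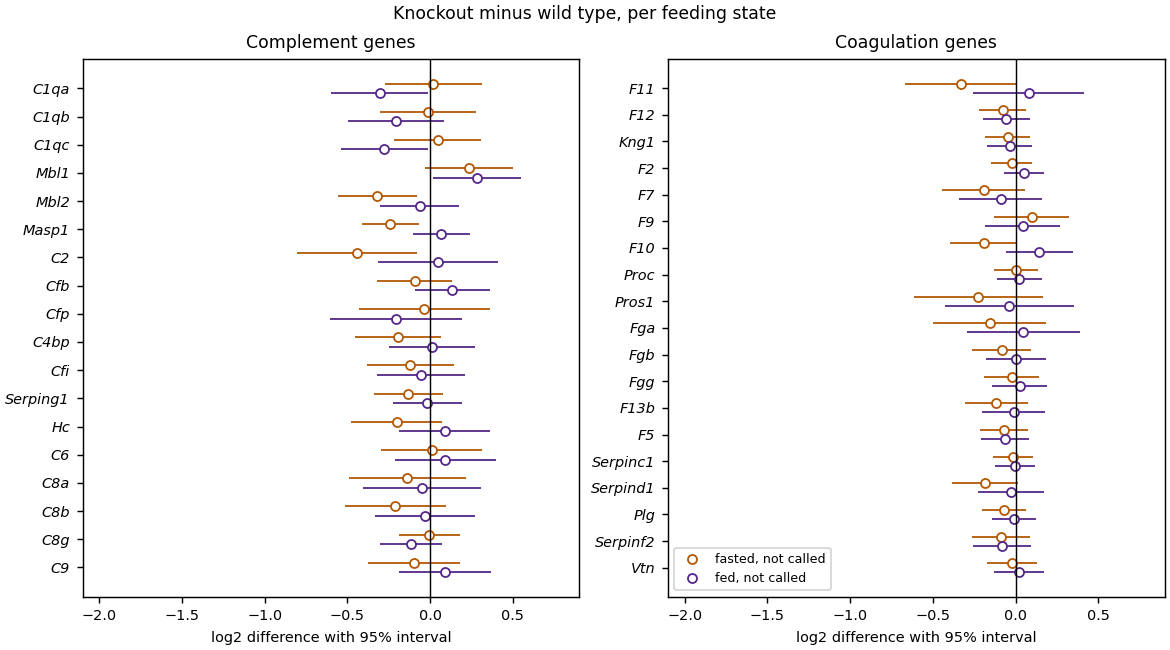
Log2 difference of knockout minus wild type liver for each complement gene (left) and coagulation gene (right), fasted above fed within each gene. Points are limma estimates with 95% intervals (4 arrays per group). All points are open, because 0 of 37 members were called in either feeding state.

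The fasting responses themselves were compared between genotypes through the interaction term. None of the 37 members was called, where 0% of all genes were. At an unadjusted p under 0.05 there were 1 complement gene (Masp1, -0.31) and 1 coagulation gene (F10, -0.34). The share of all genes at that unadjusted p was not counted here either. The interval of the difference ran from -1.004 to 0.74 over complement and from -0.88 to 0.37 over coagulation genes. That 10 complement genes were called in KO and 5 in WT livers is therefore not shown to be a difference between the genotypes. Acute phase genes, on which fed KO 4 stood apart, had a median log2 difference of -0.35 in KO and -0.01 in WT livers, and their part in the counts was not tested. These comparisons use the same fed and fasted arrays as the within-genotype ones and are not separate evidence.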

How the data were processed

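Liver RNA was labelled and hybridised to whole-transcript arrays, 1 array per sample. The authors deposited log2 intensities from RMA, per the submitters' processing notes. RMA normally includes background correction, quantile normalisation and a summary per probe set. Neither its version nor a genome build was given in the sources used here. Of 35556 probe sets, 21218 had 1 gene symbol, 1881 had several and 12457 were not in the gene table used. Array medians over probe sets lay between 5.19 and 5.29.

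A mean per group was fitted to all 16 arrays with limma 3.58.1 in R 4.3.3 (12 residual and 4.66 prior degrees of freedom). Groups came from the sample titles. The contrasts were fasted against fed in each genotype and averaged over genotypes, KO against WT in each feeding state, and the difference of the fasting responses. No filter on dim genes was applied.

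The 42 members and all gene lists were chosen with earlier results of these data known. Every measured member could be named. Those called in any contrast are given array by array or by range. Of the other pathway genes, called ones are named up to 6 per list and contrast, by size for the falls averaged over genotypes. Promoter windows come from RefSeq (GRCm38.p6), cut to 250 bases before the start.

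The fits were repeated with median centring, with cyclic loess or a further quantile normalisation, above the 50th percentile of mean level, on averaged probe sets, with trended or robust priors and with array weights. Further fits took only the compared groups, blocked on plate column or title number, or used 13 or 14 arrays. Plate column is a reading of the array names, and whether it marks a batch is not known. A threshold of 0.01 and leaving out each array were also tried. A random block for the row letter of the array name was added after seeing the data. Same-numbered samples did not deviate together (16 pairs, r between -0.22 and 0.21, 1 of them over 0.1), so the title numbers were not used as pairs.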

Additional observations from a re-analysis of the deposited data

Results flagged for a closer look

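In 5 of the 148 groups of 4 arrays examined for the members, 1 array lay far from the other 3 by Dixon's criterion, where chance alone gives about 1 in 20. Cfi lay at 12.21 on fed KO 4, against 11.86 to 11.88 on the other fed KO arrays. Masp1 lay at 10.75 on fasted KO 2, against 10.59 to 10.60. Mbl2 lay at 9.35 on fasted WT 2, against 9.09 to 9.13. F11 lay at 9.78 on fed KO 3, against 10.03 to 10.06. Kng1 lay at 12.74 on fasted WT 4, against 12.84 to 12.86. The array of Cfi is the one with the highest acute phase mean and that of Kng1 the one with pancreatic transcripts. Their part in these values was not tested.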

How the results depend on the processing

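No member reversed direction past the threshold under any setting tried. The count of complement genes called in WT livers (5) was 2 with median centring, 3 with array weights, with only the groups compared and with 14 arrays (without fasted WT 4 and fed KO 4), and 1 below an adjusted p of 0.01. In KO livers (10) the count was 3 with 13 arrays (without fasted KO 1, fed KO 4 and fed WT 2, whose names end in 2), 6 with 14 arrays and 5 below 0.01. Coagulation counts in WT livers (3) were 1 with only the groups compared, with 13 arrays, with 14 arrays and below 0.01, and averaged over genotypes (7) they were 11 with cyclic loess and 12 with the 50th percentile filter. With 1 array left out, complement counts were 6 to 11 in KO, 1 to 5 in WT and 8 to 14 averaged, and coagulation counts were 4 to 5 in KO, 1 to 4 in WT and 7 to 8 averaged. Over all genes the WT count (1432) was 829 with only the groups compared and 576 below 0.01, the KO count (1772) 964 with 13 arrays and 879 below 0.01, and the averaged count (3440) 1966 below 0.01. KO against WT gave 1 gene in fasted liver (3) with 13 arrays, with 14 arrays and below 0.01. In fed liver (1) it gave 2 genes with median centring, the percentile filter, trended or robust priors, array weights and the row letter block, and 0 with only the groups compared and with 13 arrays. With 1 array left out the counts over all genes were 1216 to 1861 (KO), 880 to 1608 (WT), 2903 to 3497 (averaged), 1 to 5 (KO against WT, fasted), 1 to 3 (fed) and 0 to 1 (difference of responses). In the fits with 13 and 14 arrays estimates moved too (Hc in KO livers -0.29 and -0.34, against -0.45 with all arrays). Apart from the stricter threshold, the cause was not tested. With the title number as a replicate block, 1324 genes were called in WT, 1658 in KO and 3269 averaged, with 5, 9 and 11 complement and 2, 4 and 7 coagulation genes. The block lost the calls of F12 in WT (adjusted p = 0.0505) and Mbl1 in KO livers (0.0610). Within both plate columns, as read from the array names, every called member kept its direction. The columns are parts of the same arrays, so this is not separate evidence. The number of arrays limits what small differences can show, and array values of near-identical genes may mix.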
